A study of Mus musculus with 4 samples.

Results

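The genes described here are 8 transcription factors that guide effector fate in Tc: Tbx21, Eomes, Zeb2, Prdm1, Id2, Zfp683, Runx3 and Bhlhe40. They were taken by symbol from the 32285 genes that were counted, and each symbol had 1 row. Tbx21 encodes T-bet and Eomes encodes eomesodermin, related T-box factors that switch on the cytotoxic program of CD8+ Tc, with T-bet favoring short-lived effector cells and eomesodermin found in memory and in exhausted cells. Zeb2 is a repressor that acts downstream of T-bet in terminal effector cells, Prdm1 encodes the repressor BLIMP-1, and Zfp683 encodes its relative HOBIT, known from tissue-resident Tc in mice. Id2 holds E proteins back from DNA, Runx3 sets CD8 lineage identity and cytotoxic and resident programs, and Bhlhe40 is a basic helix-loop-helix repressor needed for cytokine production and metabolic fitness of Tc.

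Single-cell RNA was counted in spleen Tc from 4 BALB/c recipients, 1 library per mouse. Every recipient had been lethally irradiated and given 10000 WEHI-3B cells, a myelomonocytic leukemia line, with allogeneic C57BL/6 BM, followed on day 2 by 200000 donor splenic Tc, and spleens were taken on day 23. Donors of both groups carried floxed Havcr2 alleles, Havcr2 being the gene of TIM-3. The 2 Havcr2fl/fl;E8icre/+ donors also carried 1 cre allele driven by the E8i element of Cd8a, which is meant to delete Havcr2 in CD8+ cells, and the 2 Havcr2fl/fl donors did not. No library had donor Tc without floxed Havcr2, and none came from a mouse without leukemia. The age of the mice is given only for the study as a whole, as a range of weeks in young adulthood, and not per sample. The labels name enrichment with a pan-Tc kit, whereas the text of the study speaks of sorted donor Tc. Replicates are separate mice, so spread between libraries includes differences between recipients.

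The 4 libraries held 1511 to 6737 barcodes and 17693991 to 55045903 gene UMIs (unique molecular identifiers, each counting 1 captured RNA molecule). After filtering, 11513 cells remained, of which 6808 fell in clusters with Cd3e, Cd3d or Cd3g in nearly every cell, and the other 4705 were erythroid, myeloid, B lineage and further cells. By their own Cd8a, Cd8b1 and Cd4 UMIs, 4279 of the T cells were CD8+ Tc (488 to 1539 per library) and 1765 were CD4+ Tc (241 to 630 per library). Libraries shared 1 to 10 barcodes per pair. Markers of other cells were counted in CD8+ Tc as well, with 5 erythroid genes summing to 1913 to 6009 CPM (UMIs of a gene scaled to an equal total for each library and class) and 6 myeloid genes to 31.8 to 89.8 CPM; their part in the results was not tested. From UMIs summed over a whole class alone, fewer cells of a type and less RNA per cell cannot be told apart.

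Havcr2, the targeted gene, was examined first. In CD8+ Tc it had 61.2 and 7.87 CPM in the libraries labelled Havcr2fl/fl;E8icre/+ replicates 1 and 2 and 54.5 and 114 CPM in Havcr2fl/fl replicates 1 and 2. The level in the library labelled Havcr2fl/fl;E8icre/+ replicate 1 thus lay between those of the floxed libraries and not below them. Genotype differences of the 8 genes and of the gene lists are therefore also given without this library. In CD4+ Tc the levels were 56.0, 28.9, 16.8 and 48.9 CPM in the same order. Set beside CD4+ Tc of the same library, the CD8+ level was similar in Havcr2fl/fl;E8icre/+ replicate 1 and lower in replicate 2. It was higher than in CD4+ Tc in both Havcr2fl/fl libraries, so relative to CD4+ Tc the order went with the labels. The deleted exons are not given in the sources used here, and 3′ tags from outside the deleted part would check nothing.

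The genes lie on 7 chromosomes of the mouse (GENCODE M21, GRCm38). Tbx21 is at chr11:97098071-97115331 on the minus strand, Eomes at chr9:118478212-118486132 on the plus strand, Zeb2 at chr2:44983632-45117395 on the minus strand and Prdm1 at chr10:44437177-44528501 on the minus strand. Id2 is at chr12:25093799-25097140 on the minus strand and Bhlhe40 at chr6:108660629-108666925 on the plus strand. Zfp683 (chr4:134053838-134058996) and Runx3 (chr4:135120652-135177990) are both on the plus strand. An opposite-strand gene that was also counted overlapped 4 of the 8, Eomes, Zeb2, Runx3 and Bhlhe40, with 3 to 55 UMIs in all CD8+ and CD4+ Tc.

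Since ZEB2, RUNX3, the T-box pair, BLIMP-1 and BHLHE40 bind DNA themselves, the 250 bases before each RefSeq start (GRCm38.p6) were searched on both strands for short core motifs. RefSeq windows were matched for 6 of the 8 genes, 10 windows in all, and none was used for Zfp683 or Bhlhe40. The motifs were CACCTG or CAGGTG for ZEB, TGTGGT or ACCACA for RUNX, TCACACC or GGTGTGA for T-box factors, CACGTG for BHLHE40 and GTGAAAG or CTTTCAC for BLIMP-1, and none of these overlaps another. Matches were found in the following 3 windows, which are shown because each holds the letters of a factor named here, in capitals. The Tbx21 window is chr11:97115332-97115581 on the minus strand, the Prdm1 window is chr10:44458749-44458998 on the minus strand and lies inside the GENCODE gene, and the Runx3 window is chr4:135120395-135120644 on the plus strand.
Tbx21: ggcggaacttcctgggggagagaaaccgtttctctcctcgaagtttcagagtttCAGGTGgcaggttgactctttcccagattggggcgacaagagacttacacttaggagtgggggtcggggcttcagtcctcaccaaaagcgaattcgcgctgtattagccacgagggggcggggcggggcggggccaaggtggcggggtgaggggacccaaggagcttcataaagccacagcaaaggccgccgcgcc
Prdm1: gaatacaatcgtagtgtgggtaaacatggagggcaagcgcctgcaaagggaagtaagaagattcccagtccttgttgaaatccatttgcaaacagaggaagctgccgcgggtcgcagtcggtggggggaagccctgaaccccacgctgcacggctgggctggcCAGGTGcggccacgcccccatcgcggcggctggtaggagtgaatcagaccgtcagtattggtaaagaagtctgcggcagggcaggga
Runx3: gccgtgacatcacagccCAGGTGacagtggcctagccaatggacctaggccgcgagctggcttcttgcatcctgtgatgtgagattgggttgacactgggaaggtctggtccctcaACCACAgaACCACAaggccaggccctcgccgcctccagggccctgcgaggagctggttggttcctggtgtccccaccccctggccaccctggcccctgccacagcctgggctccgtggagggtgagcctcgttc
The ZEB letters CAGGTG began at position -196 of Tbx21, -87 of Prdm1 and -233 of Runx3, counted from the RefSeq start, and Runx3 also held ACCACA at -134 and -126. The windows of Eomes, Zeb2 (4 starts), Id2 and the other Runx3 start held none of these letters. Of 32851 promoter windows of this length, 17.2% held the ZEB letters, 14.0% the RUNX letters, 3.33% the T-box letters, 6.02% CACGTG and 3.57% the BLIMP-1 letters. These matches describe letters in the reference, and no binding was measured.

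CD8+ Tc and CD4+ Tc were clustered with the 8 genes left out of the variable genes, and levels per cluster are summed UMIs as CPM (mean ± SD over 4 libraries). They are descriptions, because clusters come from the same cells. In CD8+ Tc, 8 clusters had enough cells, given here with some of the raised markers that named them: short-term effector-like (232 cells, Klrg1, S1pr5 and Cx3cr1), Teff-like (474, Gzmk, Gzmb, Prf1 and Fasl), resident-like (1122, Itga1, Cxcr6 and Rgs1), TPEX-like (528, Tcf7, Id3 and Slamf6), S phase-like (385) and cycling (354) cells, and 2 that were left without a type name, called here the Glp1r/Nr4a2 cluster (686) and the Klf3/Cx3cr1 cluster (381). The Glp1r/Nr4a2 cluster had 7 of 8 markers of terminal exhaustion raised, with Ccl3 and Ccl4 among its leading genes. Teff-like cells had 4 of 7 effector markers raised, and the Glp1r/Nr4a2 cluster also had 4, so the number of raised effector markers does not separate these 2 clusters. Resident-like cells had 3 of 6 resident markers raised. In CD4+ Tc, 5 clusters were described: precursor memory-like (902), cytotoxic-like (329), an Ifitm1/Ly6c2 cluster (259), cycling (148) and Treg-like (109).

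Zeb2 had the widest range of the 8 genes in CD8+ clusters, leaving aside Zfp683, which had clusters at 0. This order was lost when libraries were clustered without integration, where the range of log2(CPM + 5) was 2.94 for Prdm1, 2.50 for Eomes and 2.44 for Zeb2 (3.60 for Zeb2 with it). It reached 301 ± 166 CPM in short-term effector-like cells, with 533, 310 and 176 CPM in Havcr2fl/fl;E8icre/+ replicates 1 and 2 and Havcr2fl/fl replicate 1 and 184 CPM in Havcr2fl/fl replicate 2. Each of these was above every library's level in the next cluster, the Glp1r/Nr4a2 cluster at 64.0 ± 12.1 CPM, so that the means differed 4.70-fold. TPEX-like cells were lowest at 20.3 ± 6.45 CPM, 14.8-fold below the top, and the Klf3/Cx3cr1 (47.6 ± 31.8), S phase-like (31.8 ± 6.89), Teff-like (31.2 ± 23.2), cycling (30.5 ± 8.47) and resident-like (28.7 ± 7.15) clusters lay between and overlapped with their neighbors in this order.

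Tbx21 peaked in the same cells. Its level in short-term effector-like cells was 106 ± 12.5 CPM, 1.77 times that of resident-like cells (59.5 ± 4.94), the next in order, and libraries of the 2 clusters did not overlap. Below that, neighbors overlapped all the way from the Klf3/Cx3cr1 cluster (55.0 ± 8.37) and TPEX-like cells (46.2 ± 9.76) through the Glp1r/Nr4a2 (39.5 ± 16.2), S phase-like (37.3 ± 15.9) and cycling (30.3 ± 4.26) clusters to Teff-like cells at 29.3 ± 7.39 CPM.

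Eomes had a different order. Teff-like cells held 342 ± 78.2 CPM, with 458 and 319 CPM in the Havcr2fl/fl;E8icre/+ replicates and 301 and 291 CPM in the Havcr2fl/fl replicates, all above the Glp1r/Nr4a2 cluster at 228 ± 42.7 CPM. The cycling (201 ± 24.8), Klf3/Cx3cr1 (191 ± 58.0) and S phase-like (181 ± 35.9) clusters followed without gaps, and each library of the S phase-like cluster was above all libraries of resident-like cells (101 ± 31.3). TPEX-like cells had 56.2 ± 17.9 CPM, and short-term effector-like cells, the top cluster of Tbx21, were lowest for Eomes in every library at 33.1 ± 12.7 CPM, 10.4-fold below Teff-like cells. Without integration the cells were divided differently, and the cluster highest for Eomes, Prdm1 and Runx3 drew 0.293% of its cells from the Teff-like cluster, while that highest for Zeb2 and Tbx21 drew 36.6% from the short-term effector-like cluster. In that setting the cluster lowest for Eomes was also lowest for Zeb2, and so was not the one highest for Zeb2 and Tbx21.

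**Figure D1:**
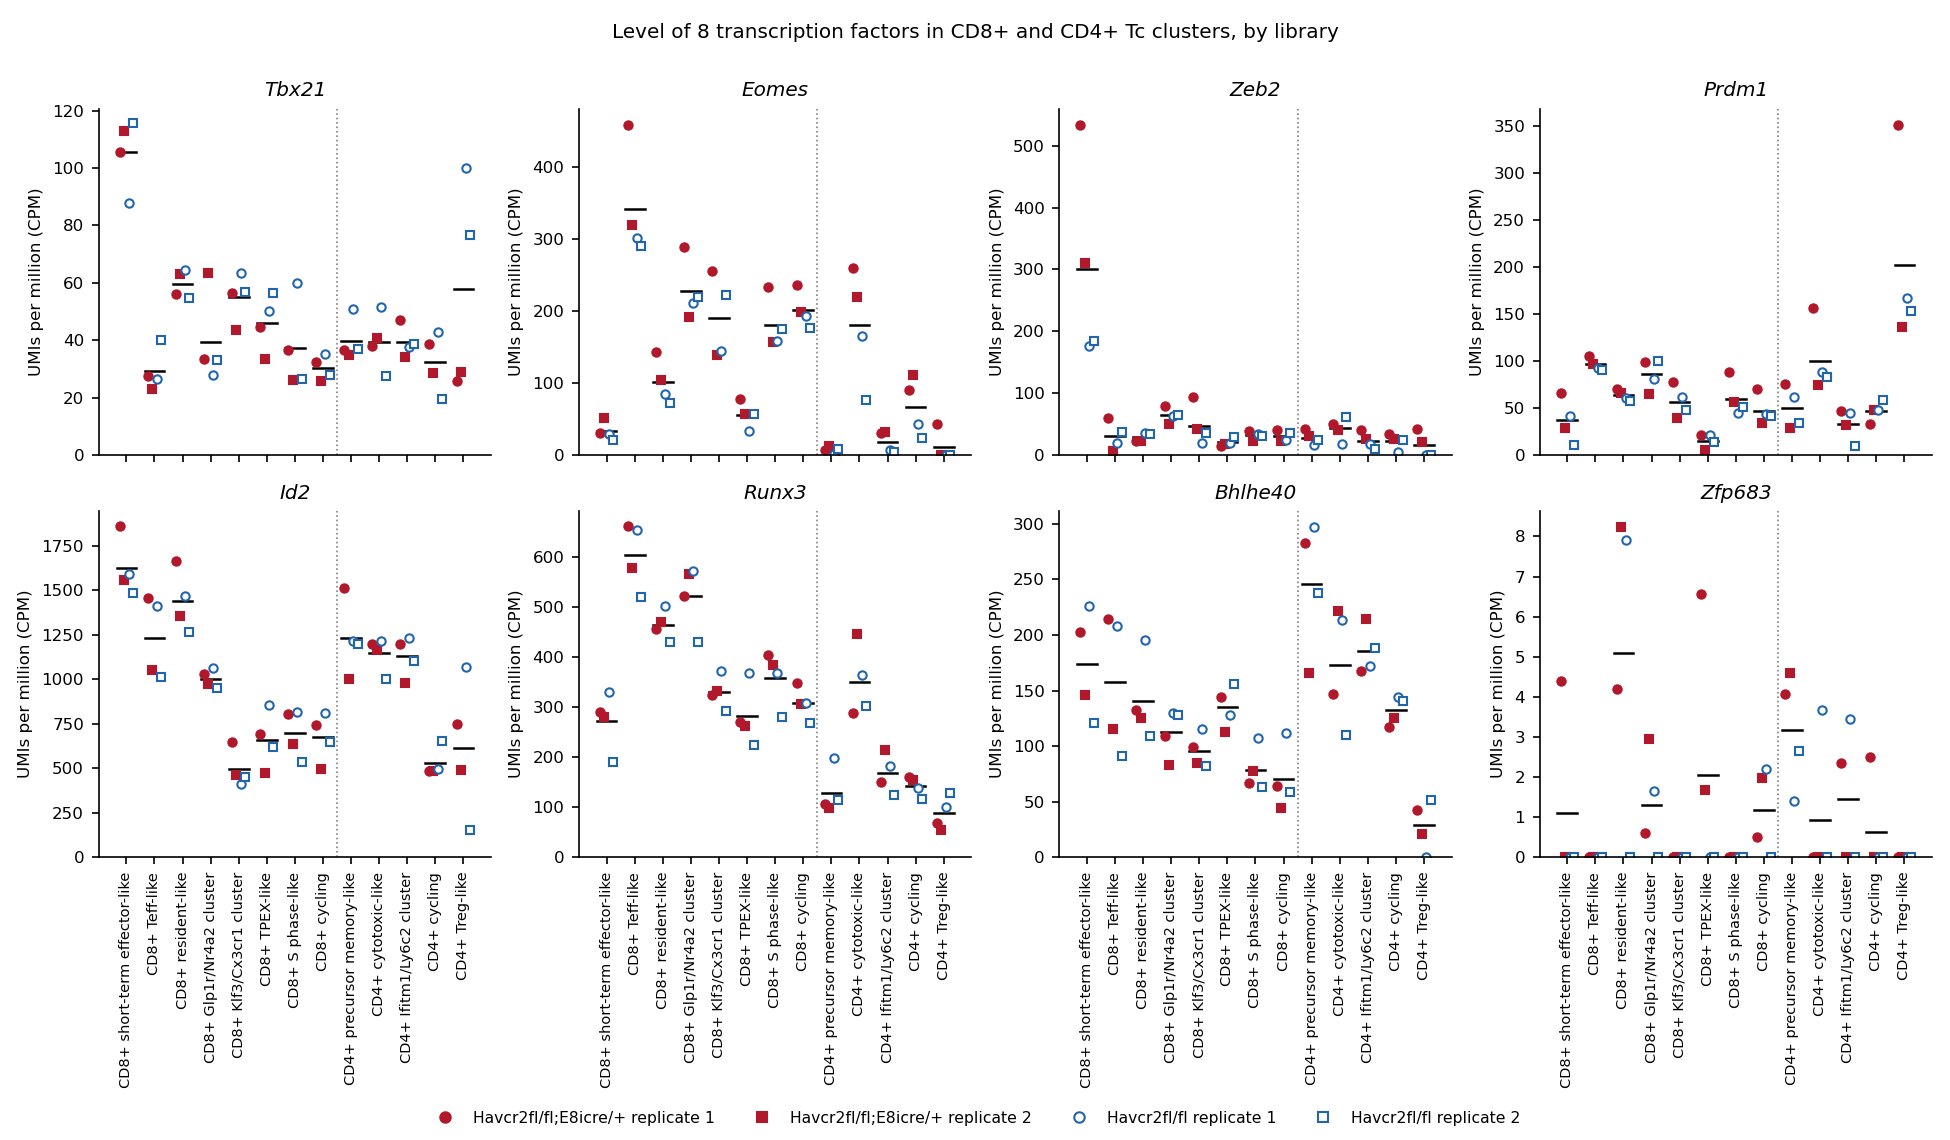
Levels of the 8 genes in CD8+ and CD4+ Tc clusters, in CPM, with 1 point per library and a bar at the mean of 4 libraries. In these clusters, made with integration, Zeb2 and Tbx21 are highest in short-term effector-like cells, where Eomes is lowest, and Eomes is highest in Teff-like cells.

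Prdm1, whose product represses memory and precursor genes, was highest in Teff-like cells (96.5 ± 6.57 CPM) and the Glp1r/Nr4a2 cluster (86.2 ± 16.9), and lowest in TPEX-like cells (15.1 ± 7.61), 6.39-fold below the top. Short-term effector-like cells were next to lowest, with 36.9 ± 23.3 CPM and a range of 10.5 to 66.1 CPM over libraries. No neighbors in the order of Prdm1 levels were apart.

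Id2 was found in every cluster. Short-term effector-like (1623 ± 163 CPM), resident-like (1438 ± 171), Teff-like (1234 ± 232) and Glp1r/Nr4a2 (1002 ± 51.5) cells formed an upper group, and each library of the last of these was above all libraries of the S phase-like cluster (696 ± 137). The cycling (674 ± 137) and TPEX-like (660 ± 158) clusters overlapped with it, and the Klf3/Cx3cr1 cluster was lowest in each library at 493 ± 103 CPM. Without integration, the cluster highest for Id2, and likewise for Bhlhe40, drew 2.53% of its cells from the short-term effector-like cluster. In 38 CD8+ cells with naive or memory markers, which were too few per library for the order above, Id2 had 28 UMIs (95.8 ± 97.8 CPM).

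Runx3 was highest in Teff-like cells (604 ± 67.5 CPM), followed by the Glp1r/Nr4a2 cluster (523 ± 65.6) and resident-like cells (466 ± 29.8), and these resident-like levels were apart from those of the S phase-like cluster (359 ± 54.5). The Klf3/Cx3cr1 (331 ± 33.2), cycling (308 ± 32.9), TPEX-like (282 ± 61.5) and short-term effector-like (273 ± 59.7) clusters overlapped in turn. Bhlhe40 ran from 174 ± 48.8 CPM in short-term effector-like and 157 ± 63.4 in Teff-like cells through 141 ± 37.9 in resident-like and 135 ± 18.7 in TPEX-like cells to 70.0 ± 29.2 CPM in cycling cells, with no neighbors apart.

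Zfp683 was near its limit of detection. It had 14, 21, 9 and 0 UMIs in CD8+ Tc of Havcr2fl/fl;E8icre/+ replicates 1 and 2 and Havcr2fl/fl replicates 1 and 2. Of the 44 UMIs, 28 were in resident-like cells (5.08 ± 3.85 CPM), and the Teff-like, S phase-like and Klf3/Cx3cr1 clusters had 0. The 0 allows a level of up to 0.620 CPM of Zfp683 (3 counts of 4840101 UMIs, counting error only). CD4+ Tc had 7, 9, 3 and 1 UMIs. At this depth no order of Zfp683 levels was detectable.

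Among CD4+ Tc, the cytotoxic-like cluster, named from granzyme, perforin and chemokine genes, was highest for Eomes, Runx3 and Zeb2. Eomes had 180 ± 79.4 CPM there, with 260 and 219 CPM in the Havcr2fl/fl;E8icre/+ replicates and 166 and 75.8 CPM in the Havcr2fl/fl replicates, against 7.31 ± 4.66 CPM in precursor memory-like cells, 24.6-fold lower. Runx3 in cytotoxic-like cells (351 ± 72.1 CPM) was above all libraries of the next cluster, Ifitm1/Ly6c2 (168 ± 38.3), and lowest in Treg-like cells (87.6 ± 33.1). Zeb2 was also highest in cytotoxic-like cells (43.0 ± 18.6) in each library, but its ranges overlapped with those of precursor memory-like cells (28.0 ± 11.4).

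Treg-like cells had a profile of their own. Prdm1 was higher there than in any other CD4+ cluster in each library (351 and 136 CPM in the Havcr2fl/fl;E8icre/+ replicates, 167 and 154 CPM in the Havcr2fl/fl replicates), followed by cytotoxic-like cells at 100 ± 37.6 CPM, whose range overlapped. Bhlhe40 was lowest in Treg-like cells (28.7 ± 23.0 CPM), below every library of the cycling cluster (132 ± 12.8), and highest in precursor memory-like cells (246 ± 58.7). Only 4 to 53 Treg-like cells came from each library, and Tbx21 and Eomes together had 3 to 8 UMIs in them. Tbx21 levels of all CD4+ clusters overlapped, from 32.4 to 57.9 CPM on average.

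Outside the T cell clusters Tbx21, Eomes, Prdm1, Zfp683 and Bhlhe40 were low, at 0.0436 to 4.17 CPM on average. Tbx21 had 1.02 ± 0.937 CPM and Eomes 1.63 ± 1.18 CPM in those cells, and at an equal 2000 UMIs per cell an Eomes UMI was seen in 24.1 ± 5.27% of CD8+ Tc against 0.218% of cells outside the T cell clusters, where the median depth before thinning was 16925 UMIs against 4805 UMIs in CD8+ Tc. Zeb2 had 135 ± 21.5 CPM outside the T cell clusters and 300 ± 58.2 CPM in myeloid or leukemia-like cells led by Prtn3 and Elane. Runx3 had 35.6 ± 8.04 CPM there, with 81.7 ± 20.1 CPM in 358 cells led by Apoe and Ctla2a, and Id2 had 28.8 ± 16.1 CPM. Among single clusters, Prdm1 reached 90.3 ± 58.2 CPM in B lineage-like cells and Id2 1077 ± 124 CPM in 78 cells led by Cst3, Cd74 and Xcr1. Myeloid markers in short-term effector-like cells summed to 30.8 CPM in Havcr2fl/fl;E8icre/+ replicate 1, the library with the highest Zeb2, and to 50.3 to 117 CPM in the other libraries, with Csf1r at 0. NK cell markers summed there to 295 and 157 CPM in Havcr2fl/fl;E8icre/+ replicates 1 and 2 and to 163 and 258 CPM in Havcr2fl/fl replicates 1 and 2. In all CD8+ Tc they summed to 31.6 to 49.6 CPM, and Ncr1 was at 0 in both. Whether such cells add to the Zeb2 level was not tested.

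The balance of the T-box pair was followed as the share of Tbx21 in the UMIs of Tbx21 and Eomes together. This share is compared between clusters and does not say which of these genes is expressed more. It was 76.5 ± 6.50% in short-term effector-like cells (77.4% and 68.9% in the Havcr2fl/fl;E8icre/+ replicates, 75.0% and 84.6% in the Havcr2fl/fl replicates) and 8.16 ± 2.80% in Teff-like cells (5.69%, 6.76%, 8.08% and 12.1% in the same order). All 4 libraries of the former were above all libraries of every other CD8+ cluster of this size. TPEX-like (45.8 ± 11.4%) and resident-like (38.0 ± 7.12%) cells were intermediate, and the Klf3/Cx3cr1 (23.2 ± 5.45%), S phase-like (17.1 ± 6.87%), Glp1r/Nr4a2 (15.0 ± 6.67%) and cycling (13.2 ± 1.75%) clusters lower. In CD4+ Tc the share was 84.1 ± 9.97% in precursor memory-like and 19.7 ± 6.55% in cytotoxic-like cells, and in Treg-like cells, with 3 to 8 UMIs of the pair per library, it was 84.4 ± 31.3%.

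**Figure D2:**
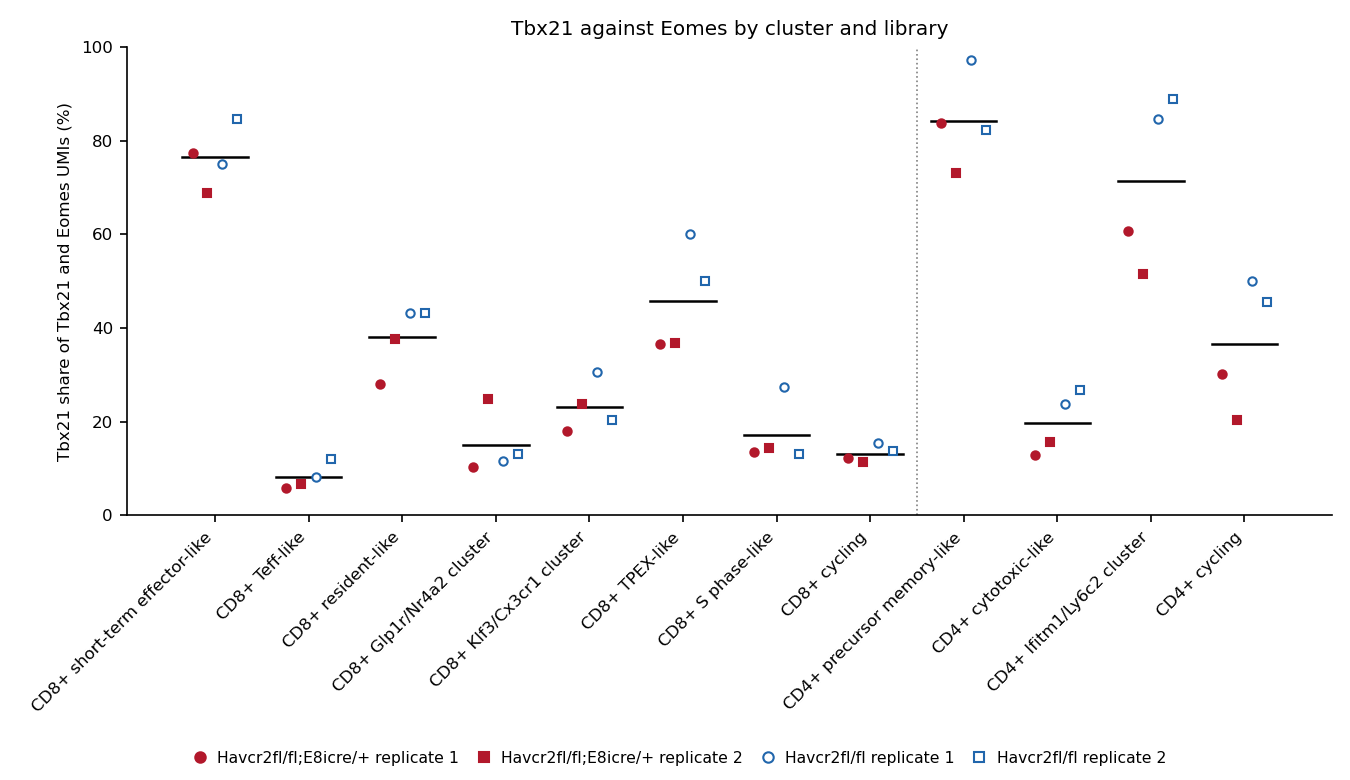
Share of Tbx21 in the summed Tbx21 and Eomes UMIs (percent) for each cluster, with 1 symbol per library and a bar at the mean. Short-term effector-like cells lie at 68.9% to 84.6% and Teff-like cells at 5.69% to 12.1%.

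Over all 11 CD8+ clusters, which share libraries, Tbx21 and Zeb2 levels varied together (Pearson r = 0.76 of log2(CPM + 5)), as did Id2 and Bhlhe40 (0.89), Id2 and Prdm1 (0.82) and Eomes and Runx3 (0.71), whereas Eomes and Tbx21 had r = -0.29. These pairs are not set apart, since Id2 and Tbx21 (0.80), Bhlhe40 and Zeb2 (0.78) and Bhlhe40 and Prdm1 (0.77) varied together too. Runx3 and Tbx21 had r = -0.02 and Eomes and Zeb2 -0.06. The genes whose patterns were most like each factor's over these clusters were Gna15, Rora and Vti1b for Tbx21 (r = 0.94 to 0.97), Vamp7, Cd7 and Sept4 for Eomes (0.86 to 0.88) and Mt1, Stard10 and Lgals3 for Zeb2 (0.90 to 0.92). For Prdm1 they were Chsy1, Baiap3 and Stk32c (0.97 each), for Id2 Vps13b, Cxcr6 and Dnajc1 (0.95 to 0.98), for Runx3 Slc36a1, Tbc1d2b and Itgav (0.92 to 0.95), and for Bhlhe40 Adamts10, Gpatch11 and Scyl2 (0.97 to 0.99). Small clusters with few cells enter these values with the same weight as large ones.

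The lineages were then compared over the 4 mice, with the mouse as a block. CD8+ Tc had more Runx3, Eomes, Zeb2 and Tbx21 RNA and less Bhlhe40 RNA than CD4+ Tc of the same spleen, and 5 of the 7 genes that passed the filter on low counts were called (4 higher, 1 lower) by edgeR's quasi-likelihood test with Benjamini-Hochberg adjustment over all genes. The background is high, since 24.7% of 10889 genes were called, 12.9% higher and 11.8% lower. Zfp683 did not pass the filter.

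Runx3 had normalised levels of 149, 157, 213 and 143 CPM in CD4+ Tc and 411, 414, 462 and 351 CPM in CD8+ Tc of Havcr2fl/fl;E8icre/+ replicates 1 and 2 and Havcr2fl/fl replicates 1 and 2. The lineages did not overlap, and the difference was 1.33 ± 0.07 (log2, SE, adjusted p = 1.3e-08, edgeR). Eomes had 76.9, 55.0, 37.1 and 20.3 CPM in CD4+ Tc and 221, 143, 145 and 165 CPM in CD8+ Tc. These did not overlap either, with a difference of 1.74 ± 0.15 (adjusted p = 1.24e-06). Zeb2 was higher in CD8+ Tc of 4 of 4 mice, at 58.8, 37.0, 42.3 and 46.0 CPM against 38.5, 28.9, 14.6 and 26.1 CPM (0.69 ± 0.14, adjusted p = 0.00193), although the ranges overlapped.

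Tbx21 differed least among the called genes. It had 35.6, 33.5, 47.7 and 32.8 CPM in CD4+ Tc and 41.0, 48.8, 53.0 and 42.9 CPM in CD8+ Tc, higher in 4 of 4 mice (0.33 ± 0.10, adjusted p = 0.024). This call was lost under 6 of 12 alternatives, among them DESeq2 (adjusted p = 0.223) and leaving out Havcr2fl/fl;E8icre/+ replicate 1 (0.050, just above the threshold), replicate 2 (0.230) or Havcr2fl/fl replicate 2 (0.0734). Bhlhe40 had 175, 159, 229 and 177 CPM in CD4+ Tc and 105, 100.1, 155 and 95.6 CPM in CD8+ Tc, without overlap, and fell by 0.71 ± 0.07 on the log2 scale (adjusted p = 2.82e-06). Prdm1 (0.03 ± 0.09, adjusted p = 0.920) and Id2 (-0.06 ± 0.05, 0.50) missed the threshold. Where lineages were set by cluster instead of by each cell's UMIs, both were called as lower in CD8+ Tc, with -0.26 for Prdm1 and -0.61 for Id2. That setting assigns whole clusters and mixes the lineages. For example, 1 cluster assigned to CD8+ Tc held 290 CD4+ and 462 CD8+ cells.

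**Figure D3:**
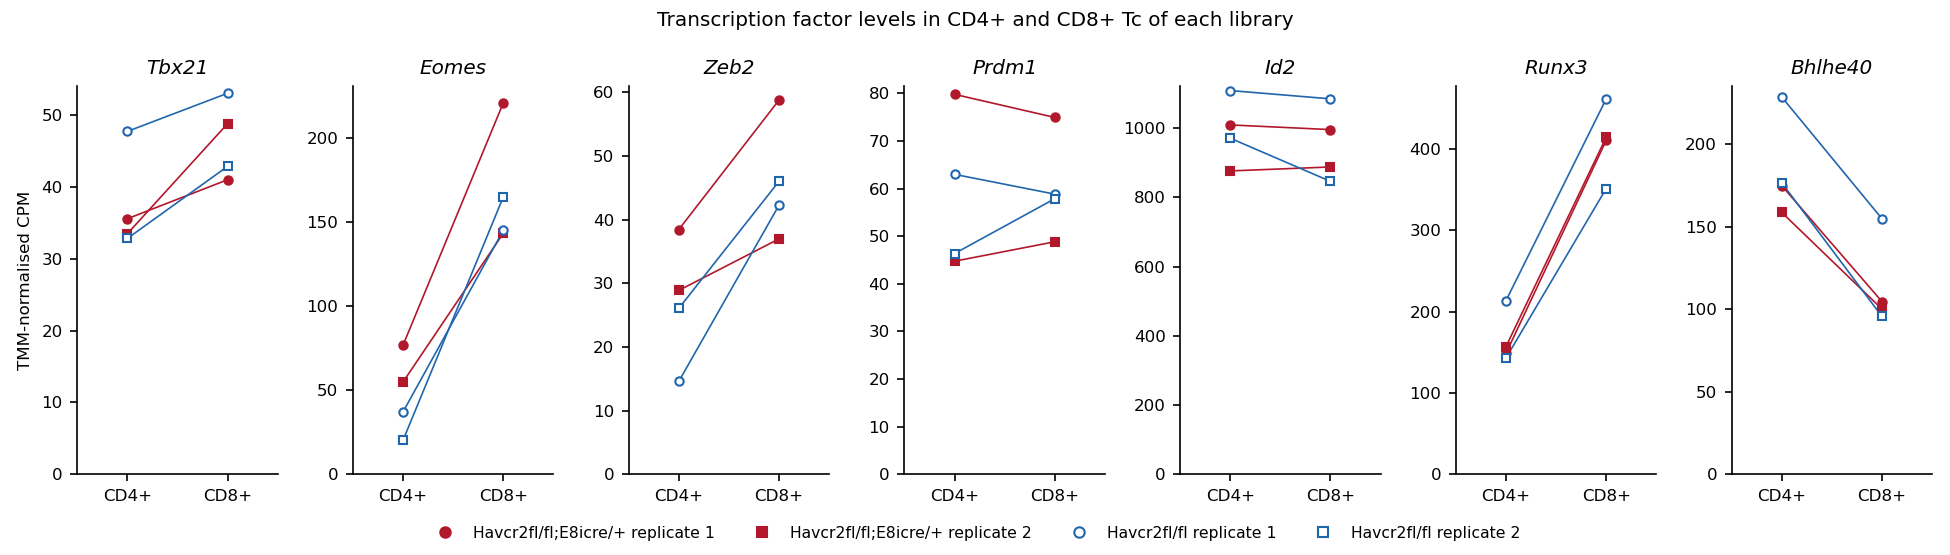
Normalised CPM of 7 genes in CD4+ and CD8+ Tc, with 1 line per library joining the lineages of the same mouse. Runx3 and Eomes are higher and Bhlhe40 lower in CD8+ Tc of all 4 mice without overlap, while lines of Prdm1 and Id2 run in both directions.

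Of 15 effector genes tested, 11 were higher and 3 lower in CD8+ Tc, with a median difference of 1.36 (log2) against 0.02 for all genes. Among them were the granule genes Gzma (3.48), Prf1 (2.78) and Gzmb (1.97), while Klrg1, an inhibitory receptor (-1.52), and the chemokine receptor Cxcr3 (-0.92) were lower. Of the Klrg1 UMIs in CD4+ Tc, 174 came from cells with a Foxp3 UMI and 92 from the rest. The lineages were not compared without those cells. Of 12 precursor and memory factors, 1 was higher and 5 lower, among the latter Lef1 (-1.37) and Tcf7 (-1.34). Of 13 residency and egress genes, 4 were higher, such as Cd244a (3.66), and 5 lower, such as the integrin Itgae (-3.46) and the homing receptor Ccr7 (-2.42). Itgae too had most of its CD4+ UMIs in cells with a Foxp3 UMI, 143 against 33 in the rest. Of 21 relatives and partners of the 8 factors, 3 were higher, namely Bhlhe41 (2.18), Tox (0.65) and the RUNX partner Cbfb (0.28), and 7 lower, such as Il2ra (-3.01), Il12rb2 (-1.53) and Id3 (-1.02), with a median of -0.18. NK cell markers moved with the lineage as well, summing to 31.6 to 49.6 CPM in CD8+ Tc and 4.03 to 16.3 CPM in CD4+ Tc, with Klre1 and Klrb1c called and the defining gene Ncr1 at 0 in CD8+ Tc.

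For a test over mice, CD8+ Tc were split by genes outside the 8. The resulting gates are not the clusters above, since Cx3cr1 was a raised marker of both the short-term effector-like and the Klf3/Cx3cr1 cluster. Cells with a Cx3cr1 UMI and no Tcf7 or Slamf6 UMI (68 to 130 per library) were compared with cells that had a Tcf7 or Slamf6 UMI and no Cx3cr1 UMI (145 to 316 per library). Such a gate sorts by single UMIs and so depends on depth. Median depths were 4619.5, 5891.5, 6203 and 3525.5 UMIs with Cx3cr1 in Havcr2fl/fl;E8icre/+ replicates 1 and 2 and Havcr2fl/fl replicates 1 and 2. In the precursor gate, that of Tcf7 or Slamf6, they were 4924, 6461.5, 6744 and 3429 UMIs in the same order. Of 7 genes tested, 3 were called, all higher with Cx3cr1, against 6.85% of 8106 genes called and 3.75% called higher.

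Zeb2 had 22.7, 12.8, 22.8 and 32.3 CPM in the precursor gate and 167, 168, 97.4 and 99.5 CPM in the Cx3cr1 gate. It was higher in each mouse without overlap, by 2.73 ± 0.22 (log2, adjusted p = 5.66e-07, edgeR), and was called under 12 of 12 alternatives. Id2 had 728, 590, 885 and 646 CPM against 925, 1056, 1079 and 673 CPM, higher in 4 of 4 mice (0.39 ± 0.10, adjusted p = 0.0244), and Eomes had 134, 138, 118 and 116 CPM against 223, 118, 185 and 165 CPM, higher in 3 of 4 (0.45 ± 0.13, 0.0433). These smaller differences did not hold in all settings. The call for Eomes was lost under 6 of 12 alternatives, including without Havcr2fl/fl;E8icre/+ replicate 1 (adjusted p = 0.401), Havcr2fl/fl replicate 1 (0.210) or Havcr2fl/fl replicate 2 (0.0847). That for Id2 was lost under 4 of 12, at equal depth (0.135) and without Havcr2fl/fl;E8icre/+ replicate 1 (0.112), Havcr2fl/fl;E8icre/+ replicate 2 (0.141) or Havcr2fl/fl replicate 1 (0.0549). For Eomes the gates and clusters differ. Its cluster levels, without TMM normalization, were 33.1 ± 12.7 CPM in short-term effector-like, 191 ± 58.0 CPM in Klf3/Cx3cr1 and 56.2 ± 17.9 CPM in TPEX-like cells. The higher Eomes of the Cx3cr1 gate thus does not describe short-term effector-like cells.

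Tbx21 was higher with Cx3cr1 in 4 of 4 mice without passing the threshold (0.56 ± 0.18, adjusted p = 0.0804), and was called without Havcr2fl/fl replicate 1 (0.0425). Bhlhe40 (0.31 ± 0.11, adjusted p = 0.134), Prdm1 (0.37 ± 0.21, 0.389) and Runx3 (0.19 ± 0.09, 0.270) missed it too. NK cell markers summed to 56.8 to 95.02 CPM in the Cx3cr1 gate and 19.5 to 35.4 CPM in the precursor gate, Ncr1 at 0 in both, and myeloid markers to 22.8 to 56.5 and 33.0 to 49.5 CPM.

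Of 15 effector genes in this comparison, 14 were higher and 1 lower (median 0.89), led by the egress receptor S1pr5 (6.61), Gzma (2.55) and Klrg1 (2.22), with Cxcr3 lower (-0.78). S1pr5 had 51 UMIs in the Cx3cr1 gate and 1 in the precursor gate, so the size of its difference is poorly measured. Of 10 residency and egress genes, 5 were higher, such as Itga1 (1.23) and Klf2 (0.63), and 2 lower, such as Cd69 (-1.35). Of 10 precursor and memory factors, 1 was higher, Klf2, and 3 lower, Id3 (-5.31), Myb (-1.79) and Satb1 (-0.63). Of 18 relatives and partners, 3 were higher, Ikzf2 (0.90), Runx2 (0.63) and Hopx (0.49), and 2 lower, Id3 and the E protein gene Tcf12 (-0.51), with a median of 0.13.

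CD8+ Tc with a Mki67 or Top2a UMI (205 to 723 per library), genes of dividing cells, were compared with the rest (283 to 816). In each library these cells were deeper, with medians of 4106 to 9034 UMIs against 2725 to 6109 UMIs. Of 7 genes, 6 were called, 1 higher and 5 lower, where 35.6% of 10355 genes were called, 18.9% higher and 16.6% lower.

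Eomes rose in dividing cells of 4 of 4 mice, from 211, 126, 126 and 144 CPM to 219, 154, 152 and 183 CPM (0.22 ± 0.06, log2, adjusted p = 0.00635, edgeR). Id2 fell from 1145, 990, 1111 and 965 CPM to 856, 745, 993 and 729 CPM (-0.35 ± 0.05, 3.2e-07), and Zeb2 from 63.1, 46.3, 53.9 and 52.8 CPM to 53.6, 26.1, 29.8 and 39.4 CPM (-0.51 ± 0.11, 0.000225). Both were lower in 4 of 4 mice, with overlapping ranges. Bhlhe40 (-0.41 ± 0.07, adjusted p = 3.22e-05), Runx3 (-0.19 ± 0.05, 0.00376) and Tbx21 (-0.31 ± 0.10, 0.0167, lower in 3 of 4 mice) were lower as well, and Prdm1 missed the threshold (0.09 ± 0.09, 0.502).

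With each cell thinned to 2000 UMIs before the gate was set, which left 84 to 464 cells in it per library, Id2 and Bhlhe40 were still called, and Zeb2 (-0.34, adjusted p = 0.197), Eomes (0.19, 0.184), Runx3 (-0.14, 0.231) and Tbx21 (-0.21, 0.505) kept their direction but were not. Eomes was also lost without Havcr2fl/fl;E8icre/+ replicate 2 (0.0617) or Havcr2fl/fl replicate 2 (0.0781), and Tbx21 without Havcr2fl/fl;E8icre/+ replicate 1 (0.0860), Havcr2fl/fl;E8icre/+ replicate 2 (0.0724) or Havcr2fl/fl replicate 2 (0.0552). These losses are not all of them, since Eomes and Tbx21 were each called under only 7 of 12 alternatives. NK cell markers were lower in dividing cells (24.1 to 45.2 against 40.1 to 56.3 CPM, Ncr1 at 0 in both), and the globin genes Hba-a1 (0.86) and Hbb-bs (0.68) higher.

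Most list genes that moved with division moved down. Of 16 effector genes, 2 were higher, Gzmk (0.22) and Gzmb (0.21), and 9 lower, such as S1pr5 (-1.94), with a median of -0.26 against -0.03 for all genes. Of 12 residency and egress genes, 0 were higher and 6 lower, such as Itga1 (-1.21). Of 12 precursor and memory factors, 1 was higher, Myb (1.41), and 9 lower, such as Bach2 (-1.43) and Tcf7 (-0.96). Of 21 relatives and partners, 4 were higher, such as Irf4 (0.57), and 9 lower, such as Hopx (-0.78).

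In CD4+ Tc, cells with a Foxp3 UMI (6 to 57 per library), the gene that defines regulatory Tc, were compared with the rest (235 to 573). Of 7 genes, 5 were called, 1 higher and 4 lower, against 7.94% of 8062 genes called, 3.40% higher and 4.54% lower. Prdm1 was higher and Bhlhe40, Id2, Runx3 and Eomes were lower with Foxp3. The gate and the Treg-like cluster draw on the same cells, so they are not independent.

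Prdm1 had 78.9, 40.9, 68.4 and 45.2 CPM without Foxp3 and 251, 134, 92.0 and 130 CPM with it, without overlap (1.51 ± 0.24, log2, adjusted p = 1.83e-08, edgeR). Bhlhe40 had 202, 191, 259 and 207 CPM without Foxp3 and 46.3, 30.5, 73.6 and 0 CPM with it, also without overlap (-2.51 ± 0.29, 2.1e-15). Id2 fell from 1149, 1030, 1242 and 1126 CPM to 516, 411, 699 and 163 CPM (-1.38 ± 0.18, 2.67e-12). For these 3 genes all 4 mice showed the same direction. In the Foxp3 gate Prdm1 had 38, 44, 5 and 8 UMIs and Bhlhe40 only 7, 10, 4 and 0 UMIs, in the same order of libraries. Adjusted p-values of this gate rest on a variance shared across genes, so they do not measure each gene's own spread over the 4 mice. The other edgeR comparisons also borrow variance from other genes, so this limit holds in part for their p-values too.

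Runx3, which helps to keep the CD8 program on, fell from 170, 184, 242 and 162 CPM to 59.6, 73.1, 73.6 and 81.3 CPM without overlap (-1.38 ± 0.25, adjusted p = 2.91e-06). Its levels with Foxp3 rest on 9, 24, 4 and 5 UMIs. Eomes fell from 87.5, 65.0, 42.5 and 23.7 CPM to 39.7, 21.3, 0 and 0 CPM (-1.57 ± 0.41, 0.0028). The zeros came from 6 and 17 cells and allow levels of up to 62.1 and 53.8 CPM of Eomes (3 counts of the library's sum, counting error only), so these 2 libraries do not show a decrease by themselves. The call for Eomes was lost under DESeq2 (adjusted p = 0.0821), without Havcr2fl/fl;E8icre/+ replicate 2 (0.144) and at equal depth (0.149), where Prdm1 (0.155) and Runx3 (0.0817) were not called either. At equal depth the gate held 4 to 47 cells per library, and the differences were -2.26 for Eomes, 1.05 for Prdm1 and -1.14 for Runx3 (log2), in the same directions. Zeb2 (-1.39 ± 0.54, adjusted p = 0.104) and Tbx21 (-0.75 ± 0.43, 0.396) missed the threshold, with 0 to 18.3 CPM of Zeb2 in the Foxp3 gate. B lineage markers, whose cells express Prdm1, summed to 0 to 35.9 CPM with Foxp3 and 9.03 to 22.3 CPM without it, with Ms4a1 and Ebf1 at 0 in the Foxp3 gate, and all NK cell markers were at 0 there.

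Effector genes in the Foxp3 gate were mostly lower, 11 of 15 tested with 3 higher (median -2.12 against -0.07 for all genes). The 3 were Klrg1 (4.67), Gzmb (3.54) and Il2rb (0.86), and the strongest decrease was that of Gzma (-5.57, from 2 UMIs in the Foxp3 gate). Of 18 relatives and partners, 2 were higher, Ikzf2 (3.93) and Il2ra (3.40), which are Treg genes, and 4 lower, such as Stat4 (-1.40) and Tox (-1.18). Of 12 residency and egress genes, 2 were higher, such as Itgae (5.81), and 3 lower, such as Cxcr6 (-4.07). Of 10 precursor and memory factors, 2 were higher, such as Foxo1 (1.40), and 3 lower, such as Tcf7 (-4.28).

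**Figure D4:**
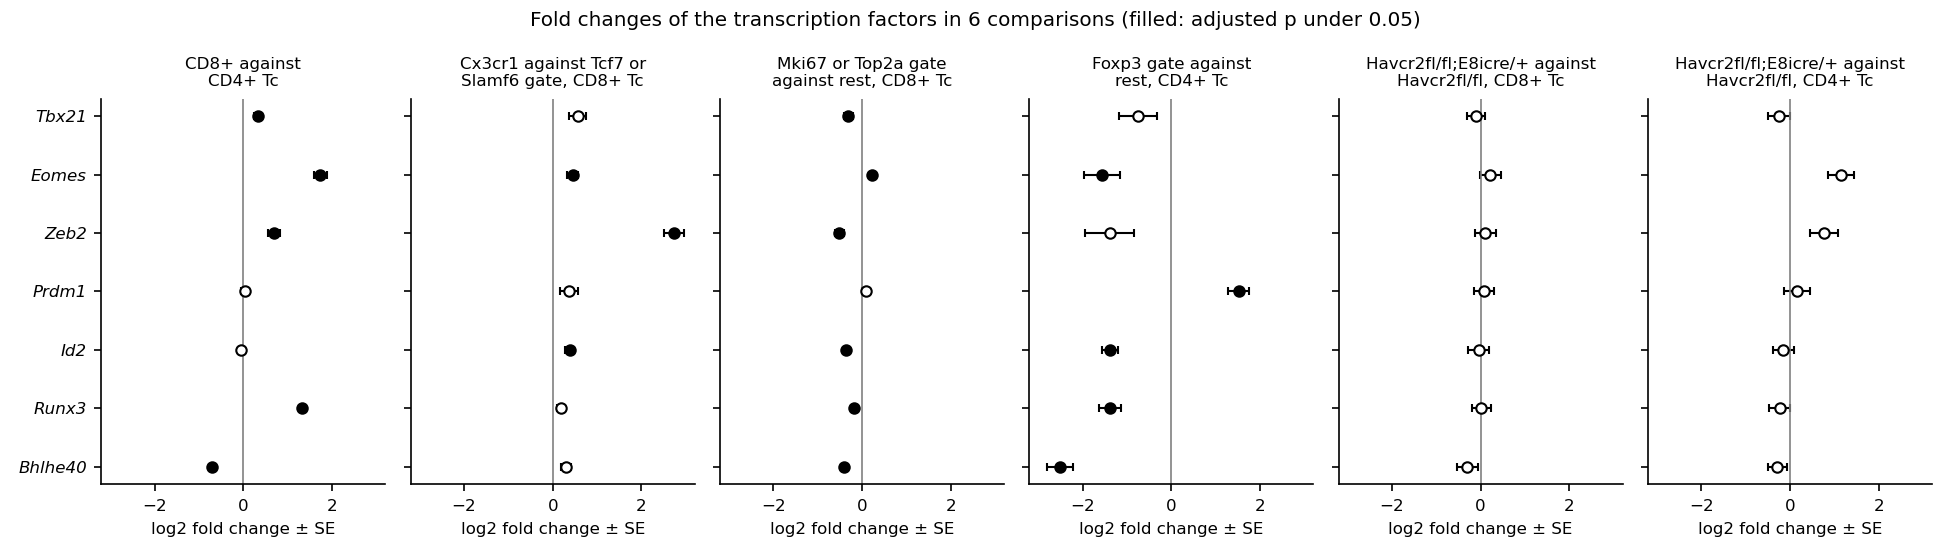
Log2 differences of 7 genes (point and SE) in the 4 comparisons made within mice and the 2 between genotypes, with filled points for those past an adjusted p of 0.05. Zeb2 has its largest difference in the Cx3cr1 gate (2.73), Runx3 (1.33) and Eomes (1.74) are higher in CD8+ than in CD4+ Tc and lower in the Foxp3 gate, and Prdm1 rises in the Foxp3 gate (1.51) where Bhlhe40 falls by 2.51.

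The study used these single-cell data to ask what deletion of Havcr2 in CD8+ Tc changes, as 1 part of its work. Its statements there on cluster proportions and signatures were not tested here. None of the 8 factors differed between genotypes after adjustment. In CD8+ Tc 8 genes were tested and 0 were called by edgeR (0.0275% of 10891 genes were, namely Prdm16, Tigit and Xlr, chosen here after their values were seen). Of all 10891 genes, 281 had an unadjusted p under 0.05, and 0 of the 8 did. DESeq2 called 0 of them too. The differences, with the Havcr2fl/fl;E8icre/+ libraries first, were 0.22 ± 0.23 for Eomes, 0.11 for Zeb2, 0.08 for Prdm1, 0.01 for Runx3, -0.05 for Id2, -0.10 ± 0.20 for Tbx21, -0.30 for Bhlhe40 and 1.05 for Zfp683 (log2, adjusted p = 0.999 for each). Eomes had 214 and 140 CPM in the Havcr2fl/fl;E8icre/+ replicates and 141 and 163 CPM in the Havcr2fl/fl replicates, and Zeb2 had 56.9, 36.0, 41.0 and 45.5 CPM, so that in both the library labelled Havcr2fl/fl;E8icre/+ replicate 1 was highest and the other lowest. Without that library the differences were -0.13 for Eomes, -0.27 for Zeb2, -0.27 for Prdm1 and 0.02 for Tbx21, each with the opposite sign, and -0.13 for Id2, -0.33 for Bhlhe40, 0.02 for Runx3 and 1.47 for Zfp683, with 0 called; the remaining Havcr2fl/fl;E8icre/+ library is then assumed to vary like the others. With 2 libraries per genotype, an exact two-sided permutation test cannot go below p = 0.333.

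CD4+ Tc are not a target of E8i cre, and in them 0 of 7 genes were called (0.0103% of 9667 were, the single gene Eps8l1, again chosen after its value was seen). An unadjusted p under 0.05 was found for 2 of the 7, and for 308 of all 9667 genes. Eomes was higher in both Havcr2fl/fl;E8icre/+ libraries, with 78.8 and 56.3 CPM against 38.2 and 20.8 CPM and no overlap (1.15 ± 0.30, log2, unadjusted p = 0.00318, adjusted p = 0.999, edgeR). Without the library labelled Havcr2fl/fl;E8icre/+ replicate 1 the difference was 0.90 (adjusted p = 0.977). It was called with no filter on low counts (0.00378) and without Havcr2fl/fl;E8icre/+ replicate 2 (0.0279), 2 of 13 alternatives. Zeb2 had 39.4 and 29.6 CPM against 15.0 and 26.7 CPM (0.76 ± 0.32, unadjusted p = 0.0358, adjusted p = 0.999). Without the same library the differences were 0.54 for Zeb2, -0.30 for Prdm1, whose sign changed, -0.25 for Id2, -0.29 for Tbx21, -0.19 for Runx3 and -0.36 for Bhlhe40, and 0 genes of the 8 were called. The cytotoxic-like cluster, where Eomes is highest, held 148 of 581 and 82 of 630 CD4+ Tc in the Havcr2fl/fl;E8icre/+ replicates and 51 of 241 and 48 of 313 in the Havcr2fl/fl replicates.

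Whether the genotype difference itself differed between lineages was tested as an interaction, in which 0 of 7 genes were called (0.0184% of 10889, namely Tigit and Trat1, chosen after their values were seen). For Eomes the difference in CD8+ Tc minus that in CD4+ Tc was -0.91 ± 0.23 (log2, unadjusted p = 0.00155, adjusted p = 0.680, edgeR). This was called under 4 of 12 alternatives, with no filter on low counts (0.000583) and without Havcr2fl/fl;E8icre/+ replicate 1 (-0.99, 0.00246), Havcr2fl/fl;E8icre/+ replicate 2 (-0.83, 0.0407) or Havcr2fl/fl replicate 1 (-1.57, 0.00843). Zeb2 had -0.67 ± 0.26 (adjusted p = 0.999), and -0.82 without Havcr2fl/fl;E8icre/+ replicate 1 (0.585).

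**Figure D5:**
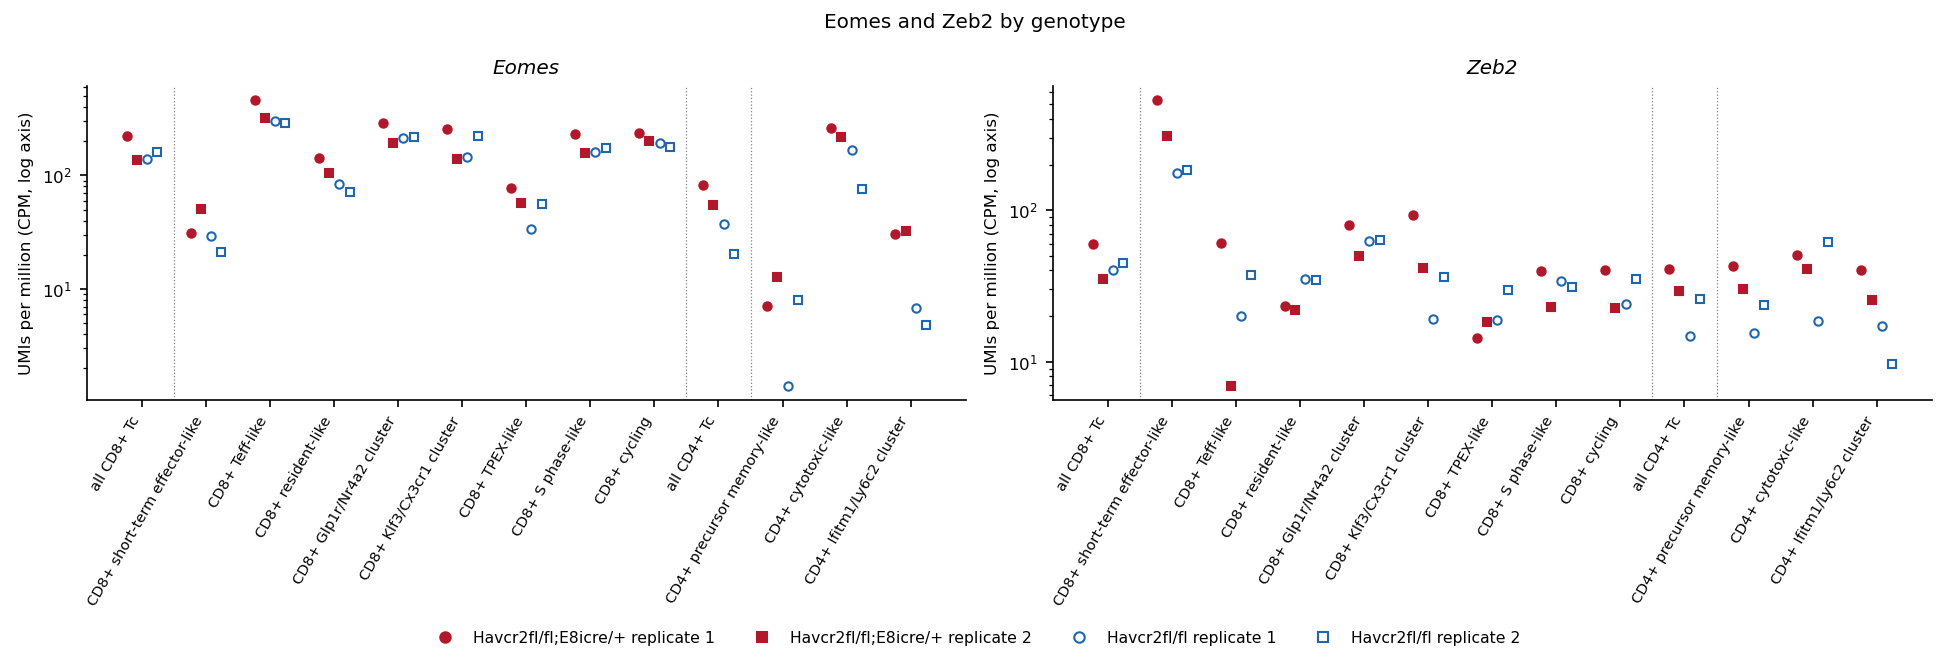
Levels of Eomes and Zeb2 by genotype in all CD8+ Tc, all CD4+ Tc and their clusters, with 1 symbol per library. Levels are CPM on a log axis, without TMM normalization. Eomes in all CD4+ Tc runs from 20.1 to 82.0 CPM, with both Havcr2fl/fl;E8icre/+ libraries above both Havcr2fl/fl libraries. In all CD8+ Tc the Eomes levels of the genotypes overlap.

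Within the 11 clusters that had at least 20 cells in each library, 73 comparisons of these genes between genotypes gave 0 calls (of all genes, 0.129% were called in CD4+ precursor memory-like cells, 0.0742% in TPEX-like, 0.0704% in S phase-like, 0.0411% in Ifitm1/Ly6c2, 0.0331% in Klf3/Cx3cr1 and 0% in the other clusters). An unadjusted p under 0.05 was found for 8 of the 73. Of all genes, the number under 0.05 ran from 105 of 3637 in short-term effector-like to 416 of 6742 in TPEX-like cells. Zeb2 in short-term effector-like cells had 561 and 350 CPM in the Havcr2fl/fl;E8icre/+ replicates (121 and 85 UMIs) and 205 and 204 CPM in the Havcr2fl/fl replicates (42 and 35 UMIs). The groups did not overlap, with a difference of 1.15 ± 0.30 (log2, unadjusted p = 0.0023, adjusted p = 0.999, edgeR). In the Klf3/Cx3cr1 cluster Zeb2 had 91.7 and 44.5 against 20.3 and 37.9 CPM (1.27 ± 0.40, unadjusted p = 0.00345). In resident-like cells Zeb2 was lower, with 22.5 and 22.9 against 36.0 and 34.8 CPM (-0.64, unadjusted p = 0.0364), and Eomes higher, with 140 and 109 against 87.2 and 72.1 CPM (0.64, 0.0109). In CD4+ cytotoxic-like cells Eomes had 265 and 239 against 177 and 82.1 CPM (0.88, unadjusted p = 0.0177), and in the CD4+ Ifitm1/Ly6c2 cluster 13 and 15 UMIs against 2 and 1 UMIs (2.27, 0.00857). The remaining 2 were Zeb2 (0.91, unadjusted p = 0.0300) and Runx3 (-0.67, 0.0159) in CD4+ precursor memory-like cells. None of these passed adjustment over the genes of its cluster. Without the library labelled Havcr2fl/fl;E8icre/+ replicate 1, that genotype had a single library. Differences of the 8 factors over clusters then ran from -1.99 ± 1.23 for Zeb2 in Teff-like cells to 1.07 ± 0.40 for Tbx21 in the Glp1r/Nr4a2 cluster. The values that follow are only for the comparisons listed above. Zeb2 then differed by 0.78 in short-term effector-like (unadjusted p = 0.0378), 0.62 in Klf3/Cx3cr1 (0.208) and -0.63 in resident-like cells (0.0964), where Eomes differed by 0.45 (0.120). In CD4+ Tc the values were 0.82 for Eomes in cytotoxic-like cells (0.0605), and 0.71 for Zeb2 (0.146) and -0.67 for Runx3 (0.0474) in precursor memory-like cells, while Eomes in the Ifitm1/Ly6c2 cluster did not pass the filter on low counts.

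None of the 4 gene lists had a member called between genotypes in CD8+ Tc, in CD4+ Tc or for the interaction. Their medians in CD8+ Tc were -0.29 for effector genes, 0.03 for residency and egress genes, 0.14 for precursor and memory factors and 0.03 for relatives and partners, against -0.005 for all genes. Without the library labelled Havcr2fl/fl;E8icre/+ replicate 1 they were -0.36, -0.02, 0.29 and -0.09, against -0.02 for all genes, and no member was called in CD8+ or CD4+ Tc. For the interaction, Tcf7 and Id3 were then called with a higher and Ikzf2 with a lower difference in CD8+ Tc, where 0.408% of 11284 genes were called.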

How the data were processed

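The authors processed the reads with Cell Ranger 6.1.2 on the mm10 build, per the labels, and deposited whole-number UMI counts without normalization, including 1 antibody tag that was kept out of sums and tests. Barcodes under 500 genes, under 1000 UMIs or over 10% mitochondrial UMIs were dropped, as were doublets called by Scrublet (scanpy 1.11.5, Python 3.11.15). Clustering used Seurat 5.3.0 in R 4.3.3 (2000 variable genes, 30 dimensions), and clusters were named from marker lists.

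UMIs were summed per library and class and tested with edgeR 4.0.16 (filterByExpr, TMM, quasi-likelihood, Benjamini-Hochberg, threshold 0.05), without a block between genotypes and with the mouse as a block within mice. "CPM" in tested comparisons is TMM-normalized. Alternatives included DESeq2 1.42.0 and equal depth (2000 UMIs per cell). The fits were tested on simulated counts in which 200 genes were changed. Of changes of 1 (log2) between genotypes, 46.5% were recovered in CD8+ Tc and 41% in CD4+ Tc. Of changes of 2, these shares were 92% and 90.5%. Within mice, changes of 1 were recovered at 78% for CD8+ against CD4+ Tc and 71% for the Cx3cr1 gate. A genotype difference of 1 or less can thus be missed. Genes left unchanged were called as well. With changes of 1, they numbered 9 in CD8+ Tc and 13 in CD4+ Tc between genotypes. Within mice they numbered 14 for CD8+ against CD4+ Tc and 9 for the Cx3cr1 gate.

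The 8 genes and all lists were chosen with earlier results of these data known. Named list genes are called members with the largest differences, at most 3 per direction; like genes had the highest r among genes of at least 20 CPM in some cluster. Gate genes were left out of tests. Some genes of the lists are not reported here by name. The study's other experiments were not analysed here.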

Additional observations from a re-analysis of the deposited data

How the results depend on the processing

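Of 613 member tests over alternatives, 570 kept their side of the threshold, 31 of them uncalled with the opposite sign, 33 lost the call and 9 gained it in the same direction, and 1 reversed (Prdm1 in CD8+ against CD4+ Tc with lineage by cluster, -0.26). Clusters in that setting mix CD4+ and CD8+ cells. Counts of genes called moved more. Between genotypes in CD8+ Tc 3 genes were called, 89 with no filter on low counts, 9 to 19 with 1 library left out and 0 with a replicate block. In CD4+ Tc 1 was called, 5 with DESeq2, 49 with no filter, 4 to 28 with 1 library left out, 9 with lineage by cluster, 5 with a replicate block, and 0 with the stricter cell filter or with doublets by expected rate (chosen after seeing the data). For the interaction 2 were called, 59 with no filter, 12 to 50 with 1 library left out and 4 with the stricter cell filter. For CD8+ against CD4+ Tc 2690 were called, 1564 with DESeq2 and 1729 to 2274 with 1 library left out. The Cx3cr1 gate gave 555, 244 with DESeq2, 313 thinned and 280 to 510 with 1 library left out. The Mki67 or Top2a gate gave 3682, 1810 with DESeq2 and 1312 thinned. The Foxp3 gate gave 640, 388 with DESeq2, 295 thinned and 349 to 574 with 1 library left out. Thinning keeps fewer UMIs and leaving out a library fewer samples; the cause of the other shifts was not tested. Deviations of same-numbered libraries correlated at -0.13 in CD8+ and -0.06 in CD4+ Tc. With 2 libraries per genotype, these values cannot show whether mice were handled in pairs, and the labels name no pairing. Of 112 ranges of a gene over clusters 97 kept within 1 SD and 15 moved. Leaving the library labelled Havcr2fl/fl;E8icre/+ replicate 1 out of the lists and clusters was also chosen after seeing the data. Scrublet called 1 and 6 doublets in Havcr2fl/fl;E8icre/+ replicates 1 and 2 and 7 and 105 in Havcr2fl/fl replicates 1 and 2. Most calls thus came from a single library, the one with the most barcodes. Depth limits Zfp683, the Foxp3 gate and small clusters.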
